A study of Homo sapiens with 12 samples.

Results

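The 4 Polo-like kinase genes PLK1, PLK2, PLK3 and PLK4 were read by 7 probe sets of the array, those that its annotation gives to 1 of these genes and to no other, out of 22215 probe sets tested. PLK1 and PLK2 had 1 probe set each, PLK3 had 2 and PLK4 had 3, and no probe set named a PLK gene together with another gene. In genes, they were 4 of the 11963 that had a probe set of their own. The arrays (Affymetrix Human Genome U133A 2.0) measured total RNA of RKO, an established human colorectal cancer line with microsatellite instability and intact p53. Cells were exposed for 24 h to thymoquinone (TQ, a quinone from black cumin seed) at 20 µM, to 5-fluorouracil (5-FU, an antimetabolite that blocks thymidylate synthesis) at 10 µg/mL (76.8 µM), or to both at these doses (TQ+5-FU), and a further group served as control. Each of the 4 groups had 3 arrays, 12 in all. The record calls the control cells untreated, whereas the study's methods give them the solvent DMSO. All groups are 1 cell line at 1 time, and the labels do not say whether the arrays of a group came from separate cultures. The study's methods speak of biological replicates in general terms and do not tie single arrays to cultures. A p-value here reflects how far arrays vary within their groups, with 1 spread pooled over all 4 groups unless another fit is named. A comparison of 1 treatment with control therefore also carries the spread of the groups outside it.

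Polo-like kinases are serine/threonine kinases named for the Drosophila mitotic kinase polo, and they share a kinase domain followed by polo boxes that dock them to their substrates. PLK1 drives mitotic entry, centrosome maturation, chromosome segregation and cytokinesis, and PLK4 starts the duplication of centrioles; transcripts of both belong to the proliferating cell. PLK2 and PLK3 were first found as serum- and growth factor-inducible genes, are induced by stress, and have been described as genes that p53 activates after DNA damage. The comparisons asked how the mitotic members PLK1 and PLK4 and the stress-induced members PLK2 and PLK3 stood after each drug and after both.

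The promoters of the 4 genes are shown because the members fall into groups by known regulation. RefSeq promoters (GRCh38.p14) were matched for 4 of 4 genes, with 1 window each for PLK1, PLK2 and PLK3 and 3 for PLK4. Each window of 300 bases, 250 before and 50 after a transcription start, was searched on both strands. Capitals mark matches to TTTGAA (the CHR element of many genes expressed in G2 and M phase), to the CCAAT box, to the TATA sequence TATAA or to the p53 decamer, the unit that is repeated in p53 response elements. The upstream 250 bases of PLK1, PLK2 and PLK3 and a 30-base stretch downstream of the first PLK4 start read as follows, 5′ to 3′ on the gene's strand.
PLK1, chr16:23678639-23678888, plus strand: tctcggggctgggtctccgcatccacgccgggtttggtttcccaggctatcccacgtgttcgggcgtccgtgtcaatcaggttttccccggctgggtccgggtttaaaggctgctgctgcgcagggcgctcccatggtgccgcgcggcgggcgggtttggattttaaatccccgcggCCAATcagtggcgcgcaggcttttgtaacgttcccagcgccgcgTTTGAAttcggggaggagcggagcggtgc
PLK2, chr5:58460087-58460336, minus strand: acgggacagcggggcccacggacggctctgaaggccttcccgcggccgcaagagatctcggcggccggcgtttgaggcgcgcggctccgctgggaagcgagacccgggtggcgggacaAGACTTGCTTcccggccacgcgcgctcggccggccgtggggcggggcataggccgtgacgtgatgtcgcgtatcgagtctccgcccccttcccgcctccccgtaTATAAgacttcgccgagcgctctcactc
PLK3, chr1:44800127-44800376, plus strand: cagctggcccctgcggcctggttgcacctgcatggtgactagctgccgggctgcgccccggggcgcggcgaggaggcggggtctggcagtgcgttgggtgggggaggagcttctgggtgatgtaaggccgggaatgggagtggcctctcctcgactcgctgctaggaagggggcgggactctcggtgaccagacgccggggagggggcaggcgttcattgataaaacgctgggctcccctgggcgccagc
PLK4, chr4:127880913-127880942, plus strand: ggcaagcggcgggagattTTCAAAatggga
Positions count the first base of a match from the transcription start. PLK1 held the CCAAT box at -73 and TTTGAA at -29, and the first PLK4 window held TTTGAA on the reverse strand at 39. Of the other PLK4 windows, the second held none of these 4 motifs and the third held a CCAAT box on the reverse strand at -86. PLK2 held TATAA at -28 and a p53 decamer at -132. The PLK3 window held none of these 4 motifs. Over 35116 promoter windows of the same length, TTTGAA occurred in 15.2%, the CCAAT box in 34.6%, TATAA in 20.4% and the p53 decamer in 6.63%. These matches describe letters in a window, and binding was not measured. The genes lie at chr16:23678889-23690367 (PLK1), chr5:58453982-58460086 (PLK2), chr1:44800377-44805990 (PLK3) and chr4:127880893-127899224 (PLK4) in GRCh38.p14.

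Before the comparisons, 5-FU replicate 3 and TQ+5-FU replicate 2 stood apart from their groups. Over all probe sets, 5-FU replicate 3 correlated with the other 5-FU arrays at 0.9058 and 0.917, and those correlated with each other at 0.9977. TQ+5-FU replicate 2 correlated with its group at 0.972 and 0.9849, and the other pair of that group at 0.9959. Pairs within the TQ and control groups lay between 0.9964 and 0.9983. The 3′ minus 5′ log2 signal of ACTB, a sign of RNA quality, was 0.573 to 0.669 with TQ, 0.557 to 0.729 with 5-FU, 0.957, 0.886 and 0.67 with TQ+5-FU, and 0.577 to 0.601 in control, so that it was highest in TQ+5-FU replicate 1, which is among the 10 arrays used below. That of GAPDH was 0.131 in TQ+5-FU replicate 2 and at most 0.0889 elsewhere. The 24 poly-A spike-in probe sets averaged 9.47 on the log2 scale in 5-FU replicate 3 and 8.22 to 8.97 in the other 11 arrays. Markers of leukocytes, fibroblasts and endothelium, 8, 9 and 6 genes, averaged 5.18, 5.35 and 5.12 in 5-FU replicate 3, against at most 4.79, 5.07 and 4.82 elsewhere. The 8 epithelial markers were also highest there (6.54), against at most 6.48 elsewhere. The median difference of all genes from their control mean was 0.37 in that array, and between -0.12 and 0.12 in the others. Of the 23 markers of other cells, 0 passed the test against control under any treatment over 12 arrays. With TQ, 5-FU and TQ+5-FU, 0.150%, 4.32% and 1.78% of all genes rose and 0.117%, 2.97% and 0.853% fell. Over the 10 arrays without 5-FU replicate 3 and TQ+5-FU replicate 2, 3 of the 23 fell with TQ, where 17.3% of all genes fell. These were 1 leukocyte and 2 endothelial markers. With TQ+5-FU 1 endothelial marker fell, where 10.0% of all genes fell. The epithelial markers KRT18 and EPCAM were bright in control cells (12.09 and 9.04), while CDH1, VIL1, KRT19 and KRT20 lay between percentiles 4.86 and 13.1 of all probe sets. All results below are therefore given over 12 arrays and, where it matters, over the 10 arrays without these 2; the part of these differences in the PLK values was not tested.

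PLK3 was the member with the clearest change over 12 arrays. With 5-FU its main probe set (204958_at) rose 7.01-fold, with TQ+5-FU it rose 2.99-fold, and with TQ alone it stayed near control. Over the 10 arrays these rises were 5.70-fold and 2.65-fold, and PLK2 had a larger signal ratio with 5-FU there (14.2). PLK2, dim in control cells, rose with 5-FU by a signal ratio of 7.47, PLK1 lay below every control array in all 3 treatments without passing the test, and PLK4 lay above every control array with TQ only. Against control, 0 of the 7 probe sets passed with TQ, 2 passed with 5-FU and 1 passed with TQ+5-FU (limma, Benjamini-Hochberg adjusted p under 0.05), where 0.252%, 6.68% and 2.58% of all probe sets passed. At an unadjusted p under 0.05 the counts were 2, 3 and 3, where 9.71%, 18.5% and 11.2% of all probe sets had such a p. The 3 comparisons share their control arrays. Groups that did not overlap with control, treated higher or treated lower, were seen for 4 and 1 of the 7 with TQ (16.6% and 27.8% of all probe sets), for 2 and 1 with 5-FU (12.5% and 12%) and for 2 and 1 with TQ+5-FU (11.5% and 12.5%). Across the 4 groups, 1 of the 7 passed the moderated F test (PLK3 204958_at, adjusted p = 0.000235), as did 7.54% of all probe sets.

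With both displaced arrays left out, these counts were higher, as were those of all probe sets. Against control, 5 of 7 then passed with TQ, 3 of 7 with 5-FU and 3 of 7 with TQ+5-FU, where 30.6%, 26.1% and 21.4% of all passed. TQ+5-FU differed from 5-FU on 2 of 7 (6.13% of all) and from TQ on 6 of 7 (11.7%), and 5-FU differed from TQ on 6 of 7 (28.6%). The added calls fell on PLK1, PLK2, PLK4 and, between TQ+5-FU and 5-FU, also on the main PLK3 probe set.

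**Figure D1:**
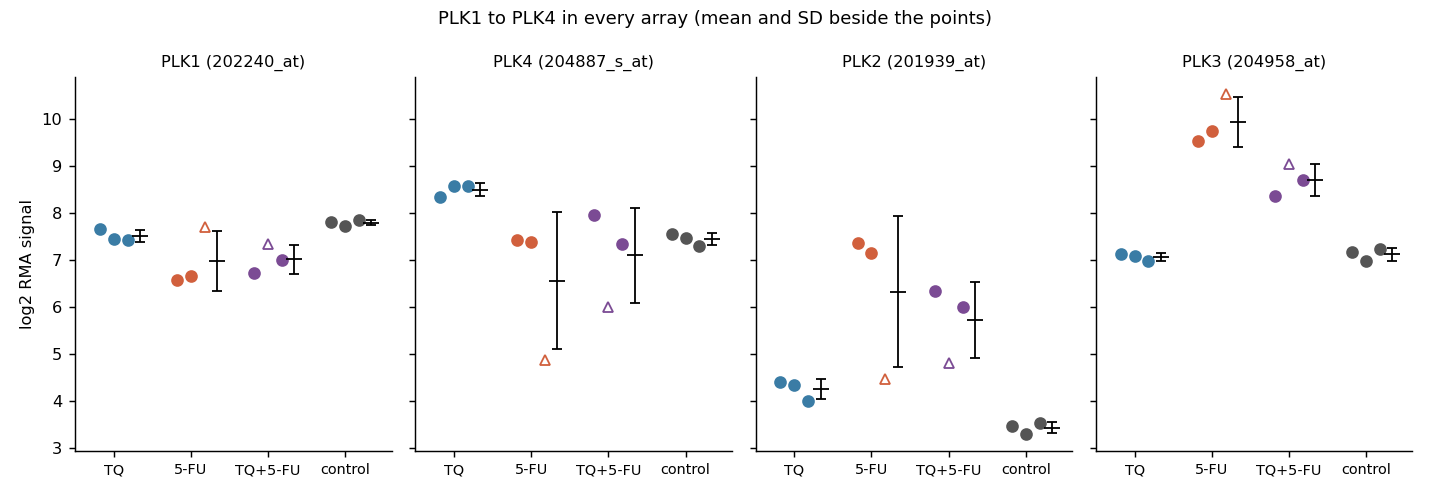
Log2 RMA signal (vertical axis) of the brightest probe set of PLK1, PLK4, PLK2 and PLK3 in every array, grouped by treatment; open triangles are 5-FU replicate 3 and TQ+5-FU replicate 2, and bars give the mean ± SD of 3 arrays. All PLK3 arrays with 5-FU or TQ+5-FU lie at 8.37 or higher, above the TQ and control arrays, and all PLK4 arrays with TQ lie at 8.35 or higher, above control.

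PLK3 (204958_at), a kinase that acts in the stress and DNA damage response, gave log2 signals of 7.13, 7.09 and 6.98 with TQ, 9.54, 9.75 and 10.54 with 5-FU, 8.37, 9.06 and 8.71 with TQ+5-FU, and 7.17, 6.98 and 7.24 in control cells. The 5-FU arrays were the highest, the TQ+5-FU arrays lay between them and control, and neither group overlapped the control arrays. The means were 7.07 ± 0.0761 with TQ, 9.94 ± 0.53 with 5-FU, 8.71 ± 0.344 with TQ+5-FU and 7.13 ± 0.137 in control (SD, n = 3 each). The log2 difference from control was 2.81 with 5-FU (SE 0.248, 95% interval 2.26 to 3.36, adjusted p = 0.000158) and 1.58 with TQ+5-FU (SE 0.248, adjusted p = 0.00836). Both drugs given together thus left PLK3 above control, with a mean below that with 5-FU alone. With TQ the difference was -0.06 (interval -0.61 to 0.49, adjusted p = 0.944). The arrays read RNA of the whole well, so that fewer cells with a transcript and less of it per cell cannot be told apart. The rise with TQ+5-FU lost its call without control replicate 2 (log2 difference 1.503, adjusted p = 0.0545), and the rise with 5-FU passed whichever single array was left out.

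TQ+5-FU lay below 5-FU for PLK3 in every array, with a log2 difference of -1.23 (2.35-fold lower, interval -1.78 to -0.68), with an unadjusted p of 0.000517 and an adjusted p of 0.0594, just short of the threshold. In this comparison 0 of the 7 PLK probe sets passed and 1 did at an unadjusted p under 0.05, where 0.738% and 9.49% of all probe sets did. Tukey's HSD after the methods' test across the groups called 1, PLK3, where 3.48% of all probe sets were called. Its Tukey p was 0.00732, which is not adjusted over probe sets. Without 5-FU replicate 3 the difference was -0.93 (adjusted p = 0.0212), and without both displaced arrays -1.10 (adjusted p = 0.00112). Groups that did not overlap, TQ+5-FU lower, were seen for 1 of 7 PLK probe sets and for 5.28% of all. Set against TQ, TQ+5-FU was higher by 1.64 (adjusted p = 0.0178), the single PLK probe set of 7 that passed there, against 0.968% of all. Leaving out any TQ array, TQ+5-FU replicate 2 or TQ+5-FU replicate 3 moved that adjusted p to between 0.0789 and 0.104. 5-FU was higher than TQ by 2.87 (adjusted p = 0.00013).

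The second PLK3 probe set (215462_at) did not share this pattern. Its log2 signals were 5.46, 5.46 and 5.50 with TQ, 5.23, 5.46 and 5.94 with 5-FU, 5.28, 5.95 and 5.59 with TQ+5-FU, and 5.17, 5.48 and 5.36 in control, and all groups overlapped control. The log2 difference from control was 0.21 with 5-FU (interval -0.24 to 0.66, adjusted p = 0.602) and 0.27 with TQ+5-FU (interval -0.18 to 0.72, adjusted p = 0.893). The interval with 5-FU excluded a signal change of the size of the other PLK3 probe set. The control mean of 215462_at (5.34) stood at percentile 35.2 of all probe sets, near that of CLDN5 (5.38), an endothelial marker. Markers of other cells ran from 2.415 (LUM) to 8.231 (COL1A1) in control cells, so they set no background level. Whether 215462_at was above background is not known. Which transcripts of PLK3 each probe set reads was not analysed here, and the array annotation gives both to the gene.

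PLK2 (201939_at), the serum-inducible member, gave log2 signals of 4.41, 4.33 and 4.01 with TQ, 7.37, 7.15 and 4.47 with 5-FU, 6.35, 4.81 and 6.01 with TQ+5-FU, and 3.46, 3.30 and 3.53 in control cells. Every treated array exceeded every control array. The lowest array of the 5-FU group and of the TQ+5-FU group was the displaced one, 5-FU replicate 3 and TQ+5-FU replicate 2. Group means were 4.25 ± 0.214 with TQ, 6.33 ± 1.62 with 5-FU, 5.72 ± 0.805 with TQ+5-FU and 3.43 ± 0.117 in control (SD, n = 3 each). Its control mean stood at percentile 9.44 of all probe sets, and its pooled SD at percentile 96.7. This control level was that of POSTN (3.43), a fibroblast marker, and no detection calls were used here. COL1A1, also a fibroblast marker, stood at 8.231, so these markers set no background level. Whether PLK2 was above background in control cells is thus not known, and its folds and sums are ratios of signals whose true size is not defined.

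The log2 difference of PLK2 from control was 2.90 with 5-FU (SE 0.66, interval 1.44 to 4.37, adjusted p = 0.0257). It was 2.29 with TQ+5-FU (4.91-fold, adjusted p = 0.122) and 0.82 with TQ (1.77-fold, adjusted p = 0.744), which did not pass. The call with 5-FU was lost when any control array, 5-FU replicate 1 or 5-FU replicate 2 was left out (adjusted p from 0.0678 to 0.1). Without the displaced arrays the differences were 0.82 with TQ (adjusted p = 0.00126), 3.83 with 5-FU (14.2-fold, adjusted p = 1.33e-07) and 2.75 with TQ+5-FU (adjusted p = 1.41e-06). The direction was the same in every treatment, and the size with 5-FU depended on replicate 3. TQ+5-FU differed from 5-FU by -0.61 (interval -2.07 to 0.86, adjusted p = 0.724) over 12 arrays and by -1.08 (adjusted p = 0.00313) over 10.

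PLK1 (202240_at), the mitotic kinase proper, gave log2 signals of 7.67, 7.45 and 7.44 with TQ, 6.57, 6.66 and 7.71 with 5-FU, 6.73, 7.34 and 6.995 with TQ+5-FU, and 7.81, 7.74 and 7.86 in control cells. The arrays of each treatment lay below all control arrays, 5-FU replicate 3 by the least. Group means were 7.52 ± 0.131 with TQ, 6.98 ± 0.635 with 5-FU, 7.02 ± 0.306 with TQ+5-FU and 7.80 ± 0.0615 in control (SD, n = 3 each). The log2 difference from control was -0.29 with TQ (adjusted p = 0.776), -0.82 with 5-FU (1.77-fold lower, interval -1.43 to -0.22, adjusted p = 0.118) and -0.78 with TQ+5-FU (1.72-fold lower, adjusted p = 0.232), and 0 of the 3 passed. Without the displaced arrays they were -0.29 (adjusted p = 0.0425), -1.19 (2.28-fold lower, adjusted p = 2.21e-05) and -0.94 (1.92-fold lower, adjusted p = 0.00021). Leaving out 5-FU replicate 3 alone gave adjusted p of 0.000768 with 5-FU and 0.00608 with TQ+5-FU. TQ+5-FU and 5-FU differed by 0.04 for PLK1 (interval -0.56 to 0.65).

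**Figure D2:**
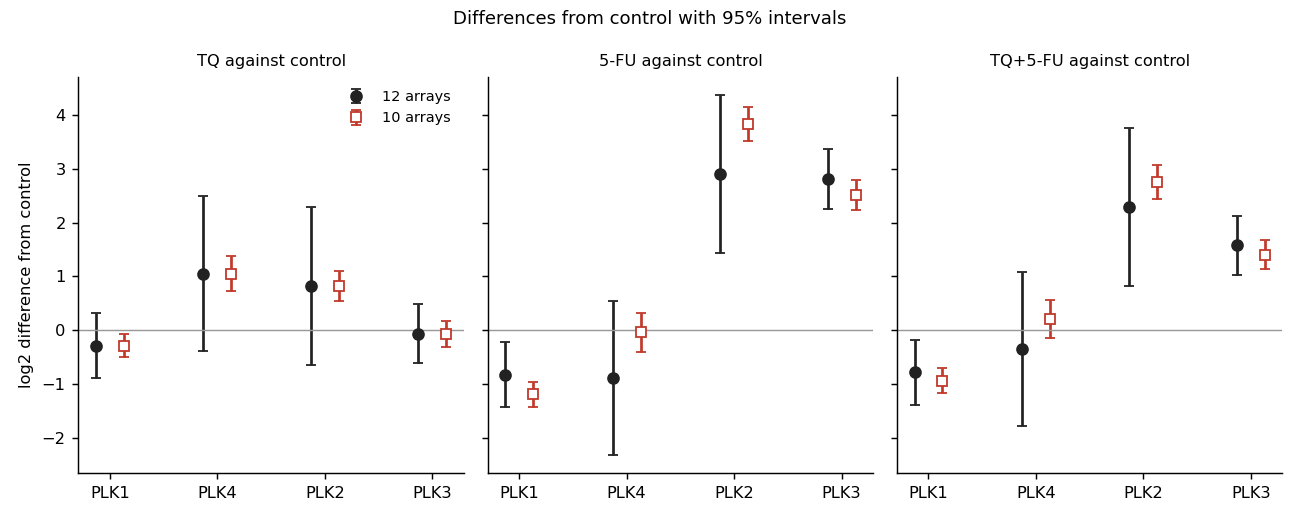
Log2 difference from control with its 95% interval for the brightest probe set of each gene under TQ, 5-FU and TQ+5-FU; filled circles use 12 arrays and open squares the 10 arrays without 5-FU replicate 3 and TQ+5-FU replicate 2. PLK3 lies at 2.81 with 5-FU over 12 arrays and at 2.51 over 10, while PLK2 lies at 2.90 and 3.83.

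PLK4, the centriole kinase, had another order of groups than PLK1. Its brightest probe set (204887_s_at) gave log2 signals of 8.35, 8.58 and 8.58 with TQ, 7.43, 7.39 and 4.88 with 5-FU, 7.97, 5.999 and 7.34 with TQ+5-FU, and 7.55, 7.48 and 7.31 in control cells. All TQ arrays were above all control arrays, and the 5-FU and TQ+5-FU groups overlapped control, each with its displaced array far below the others. Group means were 8.50 ± 0.136 with TQ, 6.57 ± 1.46 with 5-FU, 7.10 ± 1.01 with TQ+5-FU and 7.45 ± 0.123 in control (SD, n = 3 each).

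The other PLK4 probe sets were also highest with TQ and lowest with 5-FU by their means. With TQ, 204886_at read 7.14, 7.38 and 7.44, against 6.50, 6.50 and 6.34 in control cells. With TQ, 211088_s_at read 4.98, 5.10 and 5.53, against 4.29, 3.71 and 4.15 in control cells. The control mean of 211088_s_at (4.05) stood at percentile 17.4 of all probe sets, near that of MS4A1 (4.07), a leukocyte marker. The leukocyte markers ran from 2.884 (LYZ) to 6.154 (CD3E) in control cells and set no background level. Whether 211088_s_at was above background in control cells is not known, nor is the true size of its folds. All 3 probe sets read 1 gene and are not independent. With 5-FU, 204886_at read 6.47, 6.47 and 5.27 and 211088_s_at read 4.22, 4.17 and 3.05. With TQ+5-FU, 204886_at read 6.91, 5.49 and 6.26 and 211088_s_at read 4.70, 3.55 and 3.94. The lowest value of each treated group with 5-FU was again that of the displaced array.

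The log2 difference of PLK4 between TQ and control was 1.05, 0.87 and 1.15 on 204887_s_at, 204886_at and 211088_s_at (2.08-, 1.83- and 2.22-fold), with adjusted p of 0.674, 0.478 and 0.272 over 12 arrays, so that 0 of 3 passed. The TQ and control values themselves do not include a displaced array, but the spread in the fit over 12 arrays is pooled over all groups. In limma on the TQ and control arrays alone 204887_s_at had an adjusted p of 0.000403, where 29.5% of all probe sets passed. Over the 10 arrays the 3 probe sets had 0.00073, 0.0017 and 0.00261, where 30.6% of all probe sets passed. Groups that did not overlap, TQ higher, were seen for 4 of 7 PLK probe sets (3 of PLK4 and 1 of PLK2) and for 16.6% of all probe sets. The 5 PLK probe sets that passed with TQ over 10 arrays were these 4 and PLK1.

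With 5-FU the log2 differences of PLK4 from control were -0.88, -0.38 and -0.24 over 12 arrays (adjusted p = 0.504, 0.6 and 0.729) and -0.04, 0.02 and 0.15 over 10. On 204887_s_at the interval over 10 arrays was -0.40 to 0.31. With TQ+5-FU they were -0.35, -0.23 and 0.01 over 12 arrays and 0.20, 0.13 and 0.27 over 10, and none of the 3 passed in either set. Against TQ, the log2 differences with 5-FU were -1.94, -1.25 and -1.39 (adjusted p = 0.0828, 0.0586 and 0.0377), and all 3 probe sets had every 5-FU array below every TQ array, as 16.2% of all probe sets did. Between 5-FU and TQ, 2 of the 7 PLK probe sets passed, PLK3 204958_at upward and PLK4 211088_s_at downward, against 10.2% of all. The PLK4 call was lost without any single TQ or control array, without 5-FU replicate 3 or without TQ+5-FU replicate 3 (adjusted p from 0.0525 to 0.148). In the fit over 10 arrays all 3 PLK4 probe sets passed (log2 difference -1.10, -0.86 and -1.003), where 28.6% of all probe sets passed.

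**Figure D3:**
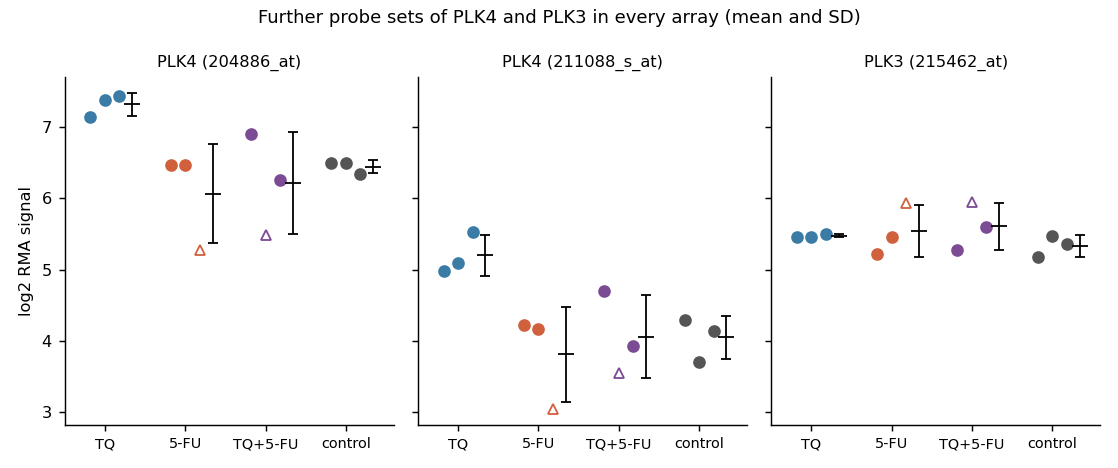
Log2 RMA signal of the further probe sets of PLK4 and PLK3 in every array, with mean ± SD of 3 arrays; open triangles are 5-FU replicate 3 and TQ+5-FU replicate 2. Both PLK4 probe sets are highest with TQ, and the PLK3 probe set 215462_at stays between 5.17 and 5.95.

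The displaced arrays moved the members in different directions. 5-FU replicate 3 differed from the mean of the other 2 arrays of its group by 1.10 for PLK1, 0.90 for PLK3 (204958_at), -2.79 for PLK2 and -2.53 for PLK4 (204887_s_at). Over all probe sets the same quantity had its 5th percentile at -2.52, its median at 0.40 and its 95th percentile at 1.03. TQ+5-FU replicate 2 differed by 0.48, 0.52, -1.36 and -1.65, with -1.23, 0.16 and 0.56 over all probe sets. PLK1 and PLK3 were thus higher, and PLK2 and PLK4 lower, in both of these arrays than in the rest of their groups. Whatever set these arrays apart was not tested.

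The members were read array by array against the mean of the control arrays, each from its brightest probe set. Read so, the stress-induced members stood above the mitotic ones wherever 5-FU was present. In the 5-FU arrays PLK2 was at 3.95, 3.72 and 1.04 and PLK3 at 2.41, 2.62 and 3.41, while PLK1 was at -1.23, -1.15 and -0.09 and PLK4 at -0.02, -0.06 and -2.57. In the TQ+5-FU arrays PLK2 was at 2.92, 1.39 and 2.58, PLK3 at 1.24, 1.93 and 1.58, PLK1 at -1.07, -0.46 and -0.81, and PLK4 at 0.52, -1.45 and -0.11. The lower of PLK2 and PLK3 exceeded the higher of PLK1 and PLK4 by 2.43, 2.68 and 1.13 with 5-FU and by 0.72, 1.85 and 1.69 with TQ+5-FU. With these probe sets this held in 6 of 6 arrays with 5-FU, the displaced ones included. It did not hold in every array with the second PLK3 probe set (215462_at). That probe set was at -0.11 in 5-FU replicate 1 and -0.06 in TQ+5-FU replicate 1, where PLK4 was at -0.02 and 0.52. With TQ alone the gap was -0.89, -1.18 and -1.28, since PLK4 and PLK2 were above control and PLK1 and PLK3 were at or below it. Read from the brightest probe sets, the split by known role therefore described the arrays with 5-FU and did not describe those with TQ alone. This split was chosen with results in view and carries no test.

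**Figure D4:**
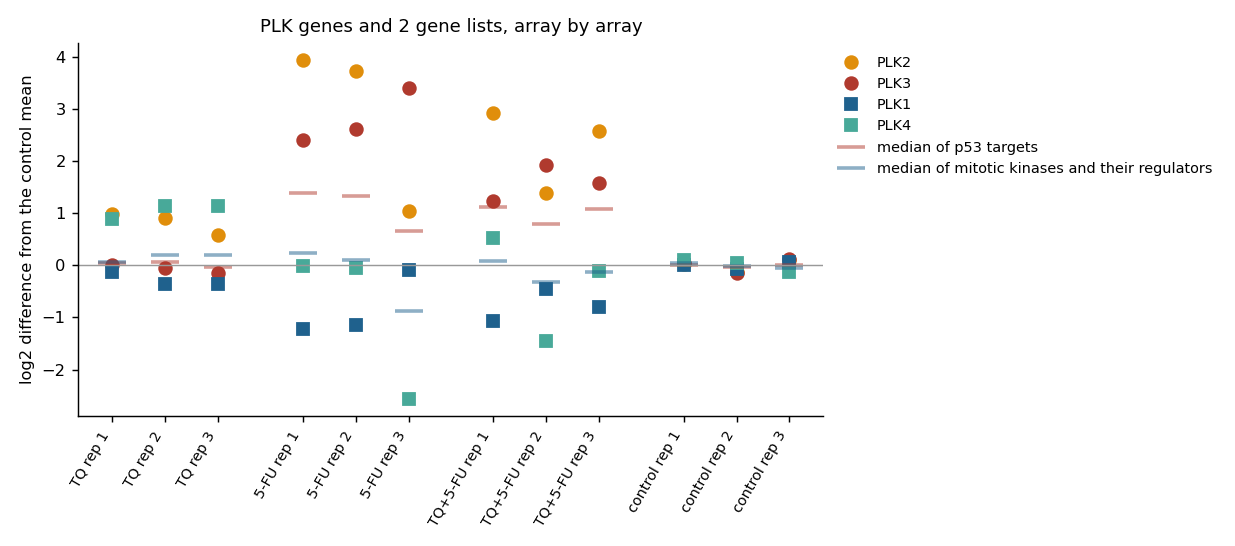
Log2 difference of the brightest probe set of each PLK gene from the control mean in each of the 12 arrays. Short lines give the median of the p53 targets and of the mitotic kinases and their regulators. PLK2 and PLK3 (circles) lie above PLK1 and PLK4 (squares) in all arrays with 5-FU, and PLK4 lies between 0.90 and 1.14 with TQ.

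The combination was also set against the sum of both single-drug differences. PLK3 (204958_at) was at 1.58 with TQ+5-FU, against a sum of 2.75, and PLK2 was at 2.29, against 3.72. PLK1 was at -0.78, against -1.11, and PLK4 (204887_s_at) at -0.35, against 0.17. The observed value of PLK3 was below the sum. That of PLK2 was too, but the size of this gap rests on a control signal not shown to be above background. In the interaction test 0 of 7 probe sets passed over 12 arrays (0.126% of all passed), and 1 did at an unadjusted p under 0.05 (6.09% of all), PLK3 with an interaction of -1.17 (SE 0.351, unadjusted p = 0.00729, adjusted p = 0.404). Over the 10 arrays 4 of 7 passed, against 9.89% of all: PLK3 at -1.04 (adjusted p = 0.00704), PLK2 at -1.91 (0.00123), PLK4 204887_s_at at -0.81 (0.0491) and PLK1 at 0.53 (0.0485).

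**Figure D5:**
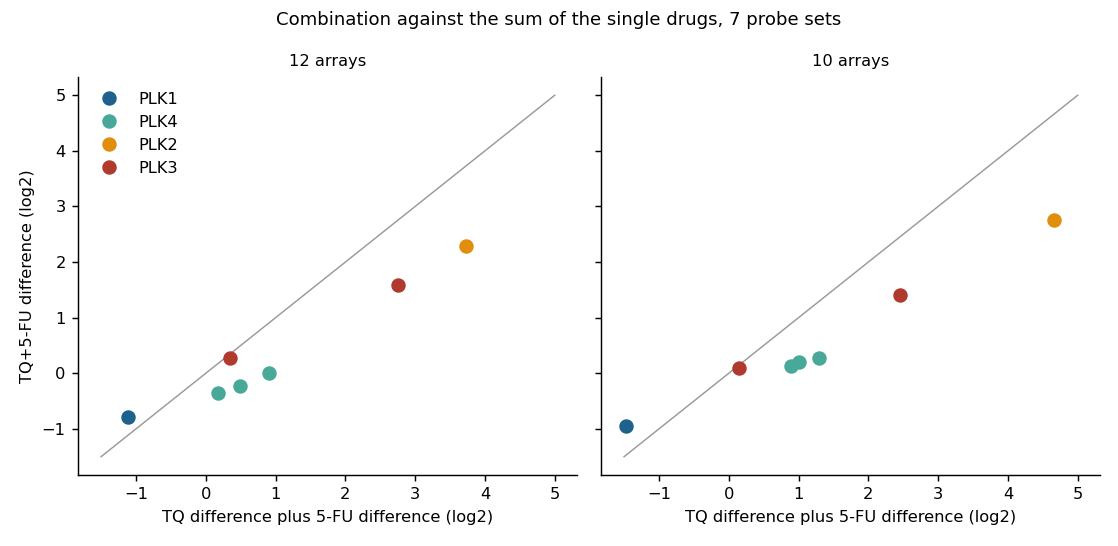
Log2 difference from control with TQ+5-FU (vertical axis) against the sum of the differences with TQ and with 5-FU (horizontal axis) for 7 probe sets, over 12 arrays (left) and 10 arrays (right); the line marks equality, and both axes share the control arrays. PLK2 and the responsive PLK3 probe set lie below the line, at 2.29 against 3.72 and at 1.58 against 2.75 over 12 arrays.

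Among genes that p53 activates, with PLK2 and PLK3 left out, many rose with 5-FU or TQ+5-FU and none with TQ alone. Of 31 listed, 24 were read, and 0, 14 and 9 of them rose with TQ, 5-FU and TQ+5-FU while 0 fell, where 0.150%, 4.32% and 1.78% of all genes rose and 0.117%, 2.97% and 0.853% fell. Their median log2 difference was -0.0009 with TQ, 0.96 with 5-FU and 1.05 with TQ+5-FU, against -0.09, 0.09 and 0.01 over all genes. GDF15, a stress cytokine, rose by 4.34 with 5-FU and by 2.78 with TQ+5-FU. TP53I3, an oxidoreductase, rose by 3.09 and 2.14, and DDB2, a nucleotide excision repair factor, by 2.60 with 5-FU. MDM2, the ubiquitin ligase of p53, rose by 1.58 with 5-FU and 1.60 with TQ+5-FU, and CDKN1A, the p21 inhibitor of cyclin-dependent kinases, by 0.68 in each. GDF15, TP53I3 and DDB2 were lower with TQ+5-FU than with 5-FU (log2 difference -1.56, -0.95 and -0.99, adjusted p = 0.00369, 0.00935 and 0.00369). KLF4, a Krüppel-like transcription factor, was higher with TQ+5-FU than with 5-FU (2.58, adjusted p = 0.000782). Against control KLF4 had 1.02 with TQ, -0.69 with 5-FU and 1.90 with TQ+5-FU (adjusted p = 0.0841, 0.0881 and 0.00118). Over 10 arrays KLF4 had -0.95 with 5-FU (adjusted p = 1.91e-05). Of the 24, 2 were higher and 3 lower with TQ+5-FU than with 5-FU (0.435% and 0.368% of all genes) over 12 arrays, and 2 were higher and 14 lower over 10 (3.67% and 3.24%). Against control over 10 arrays, 8 rose and 6 fell with TQ, 21 rose and 1 fell with 5-FU, and 20 rose and 1 fell with TQ+5-FU, where 15.1%, 14.9% and 12.7% of all genes rose and 17.3%, 13.4% and 10.0% fell.

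The genes that work with PLK1 passed about as often as all genes over 12 arrays. Of 35 mitotic kinases and their regulators, 32 were read; 0 passed with TQ, 2 rose and 1 fell with 5-FU (4.32% and 2.97% of all genes), and 0 passed with TQ+5-FU. CDC20, the activator of the anaphase-promoting complex and a partner of PLK1 in mitotic exit, fell by 0.85 on the log2 scale with 5-FU (adjusted p = 0.0265). PTTG1, which encodes securin, rose by 0.61, and UBE2C, the ubiquitin-conjugating enzyme of that complex, by 0.38. CCNB1 (cyclin B1) had -0.66 with 5-FU over 12 arrays (adjusted p = 0.406) and -0.081 over 10. FOXM1, a transcription factor of G2 and M phase genes, had 0.23 over 12 (adjusted p = 0.614) and -0.056 over 10. Over 10 arrays 13 rose and 3 fell with TQ, 9 rose and 3 fell with 5-FU, and 4 rose and 6 fell with TQ+5-FU, where 15.1%, 14.9% and 12.7% of all genes rose and 17.3%, 13.4% and 10.0% fell. The list's median over 12 arrays was 0.14 with TQ, -0.12 with 5-FU and -0.16 with TQ+5-FU, against -0.09, 0.09 and 0.01 over all genes. With 5-FU it was 0.18 over 10 arrays. In 5-FU replicate 3 the median of this list was -0.88, against 0.23 and 0.10 in the other 5-FU arrays, whereas PLK1 was nearer to control in replicate 3 than in those.

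Around PLK4, 17 of 22 genes of centriole duplication were read; 0 passed with TQ, 1 rose with 5-FU (4.32% of all genes rose) and 0 passed with TQ+5-FU. The one that rose was TUBG1, which encodes gamma-tubulin (0.75, adjusted p = 0.0197). STIL, the scaffold that PLK4 phosphorylates at the start of duplication, had 0.84 with TQ (adjusted p = 0.701 over 12 arrays, 0.00464 over 10). Over 10 arrays STIL also had 0.70 with 5-FU (adjusted p = 0.0203) and 0.61 with TQ+5-FU (adjusted p = 0.0445). Over 12 arrays these were -0.003 and 0.13 and did not pass. The list's median with TQ was 0.25, against -0.09 over all genes, and it was 0.24, 0.29 and 0.25 in the single TQ arrays. In the fit over 10 arrays 8 of the 17 rose and 2 fell with TQ, where 15.1% and 17.3% of all genes did. In that fit 7 rose and 0 fell with 5-FU (14.9% and 13.4% of all genes). With TQ+5-FU 4 rose and 2 fell (12.7% and 10.0%).

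PLK2 and PLK3 also belong to the immediate early genes by their history, and of 24 others 23 were read. With TQ 3 rose and 0 fell, with 5-FU 11 rose and 4 fell, and with TQ+5-FU 9 rose and 1 fell, where 0.150%, 4.32% and 1.78% of all genes rose and 0.117%, 2.97% and 0.853% fell. Over 10 arrays 8 rose and 5 fell with TQ, 13 rose and 7 fell with 5-FU, and 16 rose and 3 fell with TQ+5-FU, with all genes at 15.1%, 14.9% and 12.7% up and 17.3%, 13.4% and 10.0% down. ARC, FOS and ATF3 rose by 2.21, 1.97 and 0.80 with TQ, by 1.84, 1.96 and 2.92 with 5-FU, and by 3.29, 2.93 and 2.57 with TQ+5-FU. KLF6, MYC and FOSL1 fell by 0.98, 0.96 and 0.83 with 5-FU, and CCN1 fell by 0.45 with TQ+5-FU. EGR1 had 0.15, 0.10 and 0.36 and did not pass over 12 arrays. Beside these, PLK2 had 0.82 with TQ and PLK3 (204958_at) had -0.06, and neither passed over 12 arrays. Over 10 arrays PLK2 passed with TQ (adjusted p = 0.00126) and PLK3 did not, where 30.6% of all probe sets passed. A cause shared with the immediate early genes was not tested. Of 20 checkpoint genes 17 were read, and with TQ+5-FU HUS1, a subunit of the checkpoint clamp, rose by 0.68 and MDC1, a mediator at DNA breaks, fell by 0.58 (1.78% and 0.853% of all genes did); 0 passed with TQ or with 5-FU. Over 10 arrays 7 of the 17 rose and 2 fell with TQ, and 2 rose and 2 fell with 5-FU and 2 rose and 3 fell with TQ+5-FU, beside the same shares of all genes.

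The genes whose course over the 12 arrays was nearest to each PLK gene were ranked by the root mean square difference of mean-centred log2 signals among 11962 genes. Nearest to PLK3 were ELAPOR1 (0.181), IL11 (0.217), RNF19B (0.223), ASTN2 (0.243) and TUBB6 (0.25), against a root mean square of 1.22 for PLK3 itself. Nearest to PLK2, whose own value was 1.37, were FAS (0.417), SESN1 (0.417), ANKRA2 (0.565), PPM1D (0.575) and TRIM22 (0.625); FAS, SESN1 and PPM1D were in the list of p53 targets. PLK3 stood at rank 168 for PLK2 over 12 arrays and at rank 8 over 10, while PLK2 stood at rank 2373 and 134 for PLK3. Nearest to PLK1 (own value 0.453) were PFAS, PRMT7, TMEM158, PDAP1 and CAPN15 at 0.114 to 0.139. Over the 10 arrays (own value 0.48) they were SLC43A1, DLC1, PFAS, CDC20 and PRMT7 at 0.0964 to 0.118. Nearest to PLK4 (own value 1.01) were OPA1, MBNL1, OGA, SLC4A7 and IPO7 at 0.126 to 0.137. Without the displaced arrays the nearest to PLK4 (own value 0.497) were KIF14, RBBP6, MPHOSPH10, PRP4K and GOLGA4. PLK4 ranked 11547 of 11962 for PLK1 and PLK1 ranked 5972 for PLK4 over 12 arrays, and 9706 and 9341 over 10. These ranks are descriptions and share the arrays, the displaced ones included.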

How the data were processed

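RNA of RKO cells was hybridised to 12 arrays, 3 per group. The authors normalized them with RMA and deposited log2 signals, which were used as deposited; the study's methods name GeneSpring GX for this step, and the labels Affymetrix Expression Console. The 62 array controls among the 22277 probe sets were not tested. Genes came from the platform annotation of 2016 (19064 probe sets with 1 gene, 1043 with several, 2108 with none), and a gene of a list was read from its probe set of highest mean signal. limma 3.58.1 in R 4.3.3 fitted 1 mean per group over all 12 arrays, with two-sided tests adjusted by Benjamini-Hochberg over 22215 probe sets at 0.05. The interaction is TQ+5-FU minus TQ minus 5-FU plus control. The fit was tested on simulated data. The number of arrays limits the precision.

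Named are all PLK probe sets, up to 3 members of each list and direction with the largest passing difference from control, 8 lead genes fixed with the lists where they were read, and the 5 genes nearest to each PLK gene; DDB2, TP53I3, GDF15 and KLF4 are also given between TQ+5-FU and 5-FU, chosen after their values were seen. The members, lists and alternatives, including the fit over 10 arrays, were chosen with earlier results of these data known. Alternatives were the methods' t-test, their ANOVA followed by Tukey's HSD, other samples in the fit, a replicate block, quantile normalization, centring, a filter on the 30% dimmest probe sets, array weights, another variance prior and leaving out arrays. A probe set passed the ANOVA with Tukey's HSD when both its adjusted ANOVA p and its own Tukey p were under 0.05. The larger of both is the p given. Promoters came from RefSeq (GRCh38.p14). Figures were drawn with matplotlib 3.10.9.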

Additional observations from a re-analysis of the deposited data

Results flagged for a closer look

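The effect of 5-FU on 4 PLK probe sets differed between cells with and without TQ by the interaction test over the 10 arrays without 5-FU replicate 3 and TQ+5-FU replicate 2: -1.91 on the log2 scale for PLK2 (adjusted p = 0.00123), -1.04 for PLK3 204958_at (0.00704), -0.81 for PLK4 204887_s_at (0.0491) and 0.53 for PLK1 (0.0485). Over 12 arrays none of them passed (-1.43, -1.17, -0.52 and 0.33), and 9.89% of all probe sets passed over 10. The size for PLK2 rests on a control signal not shown to be above background. No group held the 4 arrays needed to look for single outlying values.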

How the results depend on the processing

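The PLK3 rise with 5-FU was called by every fit tried except the methods' t-test. The count of PLK probe sets past the threshold was 0 with TQ, 2 with 5-FU and 1 with TQ+5-FU. It was 3, 0 and 0 by the methods' t-test (16.2%, 1.19% and 2.46% of all probe sets) and 5, 1 and 2 by limma on the groups compared only (29.5%, 0.729% and 3.88%). With array weights it was 5 with TQ and 3 with TQ+5-FU (48.2% and 43.0%), and over the 10 arrays the same (30.6% and 21.4%). With 5-FU it was 1 by Tukey's HSD (the methods' ANOVA, 6.26%) and 1 without the 30% dimmest probe sets (10.0%), which left out PLK2. Leaving out 1 array gave 0 to 1 with TQ, 1 to 3 with 5-FU and 0 to 3 with TQ+5-FU. The share of all probe sets moved as well, from 0.0270% to 8.05% with TQ and from 0.824% to 10.5% with TQ+5-FU. With 5-FU that share was lowest, at 2.98%, without control replicate 1. Under each treatment it was highest without 5-FU replicate 3.

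For PLK2 with 5-FU (2.90) the larger p of the ANOVA and Tukey's HSD was 0.127. The adjusted p was 0.366 by the methods' t-test and 0.188 by limma on the groups compared only. By the methods' t-test PLK3 did not pass with 5-FU (2.81, 0.0604) or TQ+5-FU (1.58, 0.0596), and with TQ PLK2 (0.82, 0.0389) and PLK4 (1.05, 0.0225) passed. By limma on the groups compared only, PLK1 (-0.29, 0.041), PLK2 (0.82, 0.00134) and PLK4 (1.05, 0.000403) passed with TQ and PLK2 with TQ+5-FU (2.29, 0.0266). With array weights, TQ passed for PLK1 (-0.30), PLK2 (0.84) and PLK4 (1.08), 5-FU for PLK1 (-1.13), and TQ+5-FU for PLK1 (-0.78) and PLK2 (2.65). Without the displaced arrays TQ passed for PLK1 (-0.29), PLK2 (0.82) and PLK4 (1.05), 5-FU for PLK1 (-1.19), and TQ+5-FU for PLK1 (-0.94) and PLK2 (2.75).

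Signs turned only where the main difference did not pass. PLK1 between TQ+5-FU and 5-FU was -0.047 after quantile normalization and -0.0051 after centring. Between TQ+5-FU and 5-FU, array weights gave -0.034, -0.18 and -0.21 for PLK4 204887_s_at, 204886_at and 211088_s_at. With 5-FU they gave -0.019 for PLK3 215462_at and 0.30 for PLK4 211088_s_at. For 215462_at they gave -0.093 between 5-FU and TQ and 0.12 for the interaction. Without the displaced arrays PLK4 204886_at and 211088_s_at were 0.0197 and 0.15 with 5-FU, PLK4 204887_s_at and 204886_at were 0.20 and 0.13 with TQ+5-FU, and PLK3 215462_at was -0.038 between TQ+5-FU and TQ and -0.13 between 5-FU and TQ. The cause of each was not tested beyond the arrays left out.

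Leaving out 1 array at a time moved the log2 differences as follows. For TQ against control, the range was -0.36 to -0.24 for PLK1 202240_at, 0.74 to 0.94 for PLK2 201939_at, 0.99 to 1.13 for PLK4 204887_s_at. For 5-FU against control, the range was -1.19 to -0.62 for PLK1 202240_at, 2.38 to 3.83 for PLK2 201939_at, -0.58 to 0.02 for PLK4 204886_at, -0.44 to 0.15 for PLK4 211088_s_at. For TQ+5-FU against control, the range was -0.94 to -0.63 for PLK1 202240_at, 1.98 to 2.75 for PLK2 201939_at, 1.41 to 1.75 for PLK3 204958_at, -0.58 to 0.13 for PLK4 204886_at, -0.78 to 0.20 for PLK4 204887_s_at, -0.31 to 0.27 for PLK4 211088_s_at. For TQ+5-FU against 5-FU, the range was -0.16 to 0.41 for PLK1 202240_at, -0.11 to 0.26 for PLK3 215462_at, -0.25 to 0.51 for PLK4 204886_at, -0.31 to 1.09 for PLK4 204887_s_at, -0.14 to 0.50 for PLK4 211088_s_at. For TQ+5-FU against TQ, the range was -0.038 to 0.29 for PLK3 215462_at. For 5-FU against TQ, the range was -0.13 to 0.23 for PLK3 215462_at. For the interaction, the range was -0.24 to 0.12 for PLK3 215462_at, -1.36 to 0.034 for PLK4 204887_s_at.

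No pairing of the arrays by replicate number was seen. Over 18 pairs of arrays with the same number, the correlation of deviations from the group means ran from -0.836 to 0.859 (median -0.20), and 6 exceeded 0.1. Over 36 pairs with other numbers it ran from -0.879 to 0.883 (median 0.18), and 19 exceeded 0.1. The displaced arrays carry different numbers and enter these deviations, so the check cannot exclude a pairing. With the replicate number as a block, PLK3 kept its calls with 5-FU (2.81, adjusted p = 0.000977) and TQ+5-FU (1.58, 0.0235), as did PLK2 with 5-FU (2.90, 0.0411), and PLK4 211088_s_at between 5-FU and TQ did not pass (-1.39, 0.0556). Another variance prior changed none of the counts against control.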
